A study of Mus musculus with 2 samples.

Results

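Lysosomes are acidic compartments in which enzymes take apart material that a cell has engulfed or recycled from itself. A proton pump acidifies them, membrane glycoproteins line them, and proteases, glycosidases, lipases and phosphatases do the digestion. Macrophages, which engulf dying cells and debris, are known for a large lysosomal system. The 33 genes described here encode lysosomal hydrolases, their activators and lysosomal membrane proteins. They are the rows of the 2 deposited count tables whose symbol is on a list of 33 names, out of 32285 gene rows, and each name matched 1 row. By role they comprise 8 cysteine proteases (cathepsins B, C, H, K, L, S and Z, and legumain), 3 aspartic and serine proteases, 5 glycosidases, 5 proteins of lipid handling, 2 phosphatases, 2 members of the phospholipase D family, 5 membrane proteins and 3 proton pump subunits.

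Single-cell RNA sequencing on the 10x Genomics platform covered 1 library labelled WT, from MC38 tumors of Lmo7+/+ mice, and 1 library labelled KO, from MC38 tumors of Lmo7-/- mice that lack the gene in the whole body. MC38 is a mouse colon adenocarcinoma line, implanted under the skin, and the tumor cells carry wild-type Lmo7 in both libraries, so only host cells differ in genotype by design. Live cells were sorted after enzymatic and mechanical dissociation, and the sources used here do not give how many mice stand behind a library. With 1 library per genotype there was no test between genotypes, no p-value and no replicate check. Every value describes these 2 libraries, and pairs of values are given in the order WT, KO.

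The deposited tables hold raw UMI counts, where a UMI marks one captured RNA molecule, for 16208 and 15163 droplets with 98582479 and 80648345 UMIs. After filtering, 13542 and 11860 cells were left with a median of 4535.5 and 4304.5 UMIs, of which Scrublet called 2.82% and 2.37% as doublets (kept), and 279 barcodes were present in both libraries. Cells were clustered without the 33 genes and without 108 other lysosomal genes, and classes were named from markers. The targeted gene did not check the labels. Lmo7 had 10 and 13 counts in macrophage-like cells, 14 and 7 counts in endothelial-like cells and 1022 and 598 counts in tumor cell-like cells, so its level in host cells was too low to tell the genotypes apart, and RNA of a disrupted gene can remain. The name tumor cell-like is less firm than the others, since 9 and 8 of its 19 markers reached 5 CPM there with a sum of 281.2 and 350.7 CPM, while 11 fibroblast markers summed to 1693 and 1578 CPM in the same cells. Macrophage-like cells carried 13 of 13 macrophage markers, and tumor cell markers summed to 18.6 and 12.9 CPM in them.

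The promoters of the genes were searched for a motif of lysosomal gene control. The motif CACGTG, which reads the same on both strands, is bound by TFEB, TFE3 and MITF, transcription factors known for switching on lysosomal genes through a longer site called the CLEAR element. RefSeq promoters of the build GRCm38.p6, from 250 bases before to 50 bases after a start site, were given for 28 of the 33 genes. CACGTG was present in 8 of these 28 (28.6%), against 8.09% of 27025 gene symbols in the same table and 23 of 81 other lysosomal genes (28.4%). The longer TCACGTG, on either strand and always overlapping CACGTG, was present in 7 of 28 (25%), against 4.29% of all symbols. A match is a description of these letters and not a site shown to be bound. The 8 promoters are shown around the motif, 5′ to 3′ on the strand of the gene, with CACGTG in capitals.
Lamp1 (chr8:13159076-13159160, + strand, upstream of the gene): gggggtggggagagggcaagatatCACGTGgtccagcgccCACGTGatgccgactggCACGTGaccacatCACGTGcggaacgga
Gla (chrX:134601170-134601255, - strand, upstream of the gene): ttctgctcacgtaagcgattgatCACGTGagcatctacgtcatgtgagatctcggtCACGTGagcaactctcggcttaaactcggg
Ctsd (chr7:142388043-142388077, - strand, upstream of the gene): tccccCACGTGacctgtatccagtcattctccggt
Ctsd (chr7:142387908-142387937, - strand, in an exon of the annotation): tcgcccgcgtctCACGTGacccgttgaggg
Ctsa (chr2:164833749-164833772, + strand, in an exon of the annotation): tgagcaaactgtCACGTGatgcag
Gaa (chr11:119267799-119267852, + strand, upstream of the gene): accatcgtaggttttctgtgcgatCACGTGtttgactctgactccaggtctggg
Lgmn (chr12:102439112-102439165, - strand, in an intron of the annotation): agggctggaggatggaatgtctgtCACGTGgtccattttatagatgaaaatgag
Ctsl (chr13:64370739-64370768, - strand, in an exon of the annotation): ggcgttagaagcCACGTGctgatctaaatt
Atp6v1a (chr16:44139361-44139414, - strand, in an intron of the annotation): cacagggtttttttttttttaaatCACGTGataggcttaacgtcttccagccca
Lamp1, the major lysosomal membrane glycoprotein, held 4 copies in the 85 bases before its start site. Gla, which encodes alpha-galactosidase A, and Ctsd, the aspartic protease cathepsin D, held 2 copies each. The other 5 held 1 copy, and only the copy of Ctsl lacked the flanking T or A that makes TCACGTG on one strand.

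Macrophage-like cells gave the largest share of their RNA to the 33 genes. Summed over the cells of a class, the genes took 2.92% and 3.43% of UMIs in macrophage-like cells and 2.07% and 2.20% in cells like monocytic myeloid-derived suppressor cells (M-MDSCs), which are immature monocytes. Dendritic cell-like cells gave them 1.13% and 1.248%, and fibroblast-like, tumor cell-like and endothelial-like cells between 0.540% and 0.876%. T and NK cell-like cells, with 0.302% and 0.270%, were lowest. The 3 myeloid classes were above the other 4 in both libraries. Expression below is in CPM, the counts of a gene per 1000000 UMIs of the class in that library.

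Of the 33 genes, 22 had their highest level among the 7 classes in macrophage-like cells in both libraries, and 29 had the same class on top in both. T and NK cell-like cells were lowest for 16. The share of all genes in each of these positions was not counted, so these numbers alone do not set the 33 genes apart. The remaining top classes were fibroblast-like cells for 5 genes, tumor cell-like cells for Ctsl and T and NK cell-like cells for Pld3. For Gla, Npc2, Lipa and Atp6v1h the top class differed between the libraries. Gla had 137.2 and 149.5 CPM in M-MDSC-like and 130.1 and 157.6 CPM in macrophage-like cells, so these neighbours in the order were not separated.

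**Figure D1:**
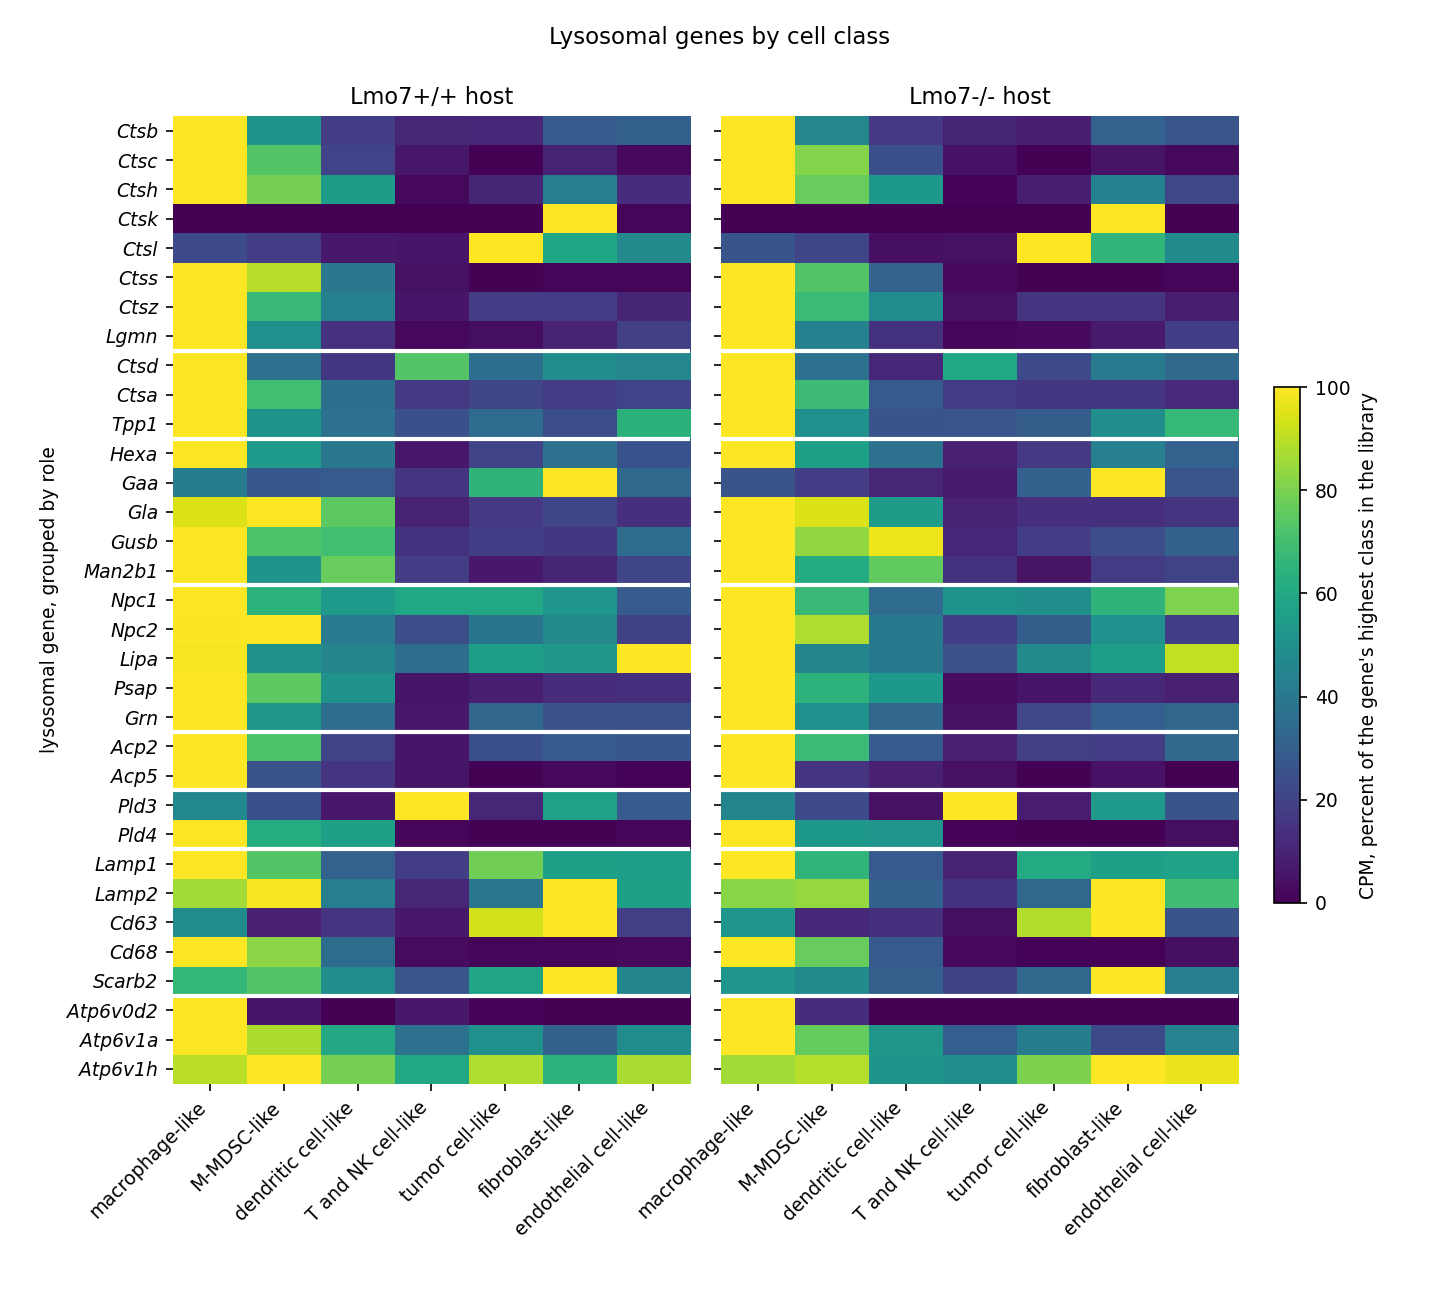
Level of the 33 genes in 7 cell classes of each library, as a percent of the CPM of the highest class of that gene in that library (colour), with 1 row per gene grouped by role and 1 column per class and library. The macrophage-like columns are the highest for 22 genes, and Ctsk, Ctsl and Pld3 stand out in the fibroblast-like, tumor cell-like and T and NK cell-like columns.

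A 2-fold difference in the same direction in both libraries was used to compare macrophage-like cells with each other class, among genes with enough counts. Over T and NK cell-like cells 28 of 32 genes were higher and 1 was lower, against 13.2% and 13.2% of all 11540 genes compared. Over tumor cell-like cells 23 of 33 were higher and 1 was lower, against 16.4% and 31.8% of 13443 genes, and the median log2 ratio of the 33 genes was 2.14 and 2.47 against -0.46 and -0.56 for all genes. Over fibroblast-like cells 20 of 33 were higher and 3 lower, against 13.6% and 17.7% of 11520 genes. Over endothelial-like cells 21 of 32 were higher and 0 lower, against 8.71% and 21.7% of 11414 genes. Among myeloid classes the gap was smaller. Over dendritic cell-like cells 21 of 32 were higher and 0 lower, against 7.21% and 5.97% of 11307 genes. Over M-MDSC-like cells 4 of 32 were higher and 0 lower, against 4.73% and 2.70% of 11264 genes, with a median log2 ratio of 0.55 and 0.56. The 108 other lysosomal genes stood apart less. In macrophage-like over tumor cell-like cells 48 of 105 were higher and 6 lower, with medians of 0.92 and 1.18.

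The cysteine cathepsins split by class. Ctss, the cathepsin that trims the invariant chain of MHC class II, had 5035 and 6884 CPM in macrophage-like cells, 4497 and 5022 in M-MDSC-like and 1998 and 2155 in dendritic cell-like cells. In T and NK cell-like cells it had 226.1 and 180.7 CPM and in tumor cell-like cells 35.7 and 32.7 CPM. Ctsc, which activates serine proteases of granules, followed the same order with 1982 and 2311 CPM in macrophage-like and 11.9 and 11.6 CPM in tumor cell-like cells. Both were thus myeloid genes in this tumor. Ctsb, a broadly used cathepsin, was also highest in macrophage-like cells (2956 and 3520.4 CPM), but it remained at 844.6 and 1112 CPM in fibroblast-like, 902.6 and 944.2 CPM in endothelial-like and 345.8 and 302.1 CPM in tumor cell-like cells. Lgmn, the asparaginyl endopeptidase legumain, had 1145 and 1262 CPM in macrophage-like cells and 15.8 to 43.5 CPM in T and NK cell-like and tumor cell-like cells.

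Cathepsin K, the collagen-cutting enzyme best known from osteoclasts, was a fibroblast gene here. Ctsk had 476.3 and 674.6 CPM in fibroblast-like cells and 1.37 and 0.89 CPM in macrophage-like cells. With every cell thinned to 1500 UMIs, 37 of 80 and 33 of 65 fibroblast-like cells held a Ctsk UMI (46.25%, exact 95% interval 35.0 to 57.8, and 50.8%, 38.1 to 63.4), against 0.172% and 0.128% of macrophage-like cells. Unthinned, the shares were 58.5% and 71.25% of fibroblast-like and 0.512% and 0.416% of macrophage-like cells, whose median UMIs were 2909.5 and 3845 against 5229 and 4415. Intervals throughout cover counting error only. Ctsl, cathepsin L, was highest in tumor cell-like cells (890.1 and 880.0 CPM), above fibroblast-like (523.1 and 579.2 CPM), endothelial-like (420.0 and 419.6 CPM) and macrophage-like cells (200.2 and 227.1 CPM). Its gene overlaps another gene on the same strand (Gm49230), as do those of Ctss and Ctsd, and reads of such overlaps could have been split or dropped in counting.

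Ctsd, the aspartic protease cathepsin D, had 330.6 and 410.5 CPM in macrophage-like cells and, next, 241.8 and 243.9 CPM in T and NK cell-like cells. In T and NK cell-like cells it stood at 73.1% and 59.4% of the macrophage-like level, where 16 of the other genes were at their lowest. Ctsa, which protects galactosidase and neuraminidase in a complex, and Tpp1, a peptidase that removes tripeptides, were highest in macrophage-like cells with 655.8 and 717.2 CPM and with 194.9 and 204.9 CPM.

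Among the glycosidases, Man2b1 (lysosomal alpha-mannosidase, 522.7 and 531.8 CPM), Hexa (the alpha subunit of beta-hexosaminidase, 349.4 and 347.4 CPM) and Gusb (beta-glucuronidase, 266.2 and 224.9 CPM) were highest in macrophage-like cells. Man2b1 was next highest in dendritic cell-like cells, with 401.5 and 401.7 CPM, and lowest in tumor cell-like cells, with 35.4 and 27.7 CPM. Gaa, the enzyme that breaks down glycogen, was instead highest in fibroblast-like cells with 83.4 and 137.2 CPM, and macrophage-like cells had 35.3 CPM of it in each library.

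The lipid group was led by macrophage-like cells for Npc1, Psap and Grn. Psap, the precursor of the saposins that help enzymes reach sphingolipids, had 6871 and 8259 CPM there, 5139 and 5323 CPM in M-MDSC-like and 3517 and 4402 CPM in dendritic cell-like cells. Tumor cell-like cells had 573.7 and 479.2 CPM of it. Grn, the precursor of lysosomal granulins, had 1662 and 1736 CPM in macrophage-like and 547.1 and 369.4 CPM in tumor cell-like cells. Npc2, which hands cholesterol to the membrane protein encoded by Npc1, had 860.3 and 987.7 CPM in macrophage-like and 866.7 and 870.8 CPM in M-MDSC-like cells, so its order was not settled between these classes. Npc1 had 65.6 and 75.1 CPM in macrophage-like cells. Lipa, the lysosomal acid lipase, had 198.0 and 217.6 CPM in macrophage-like and 200.6 and 197.7 CPM in endothelial-like cells, which did not differ beyond their counting error.

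Of the phosphatases and the phospholipase D family, 2 genes had at most 2.95 CPM in tumor cell-like cells. Acp5, the tartrate-resistant acid phosphatase, had 286.9 and 327.9 CPM in macrophage-like, 73.3 and 49.8 CPM in M-MDSC-like and 1.95 and 1.63 CPM in tumor cell-like cells. Pld4, an endolysosomal exonuclease of single-stranded nucleic acid, had 382.2 and 426.2 CPM in macrophage-like, 217.4 and 223.1 CPM in dendritic cell-like and 2.95 and 2.04 CPM in tumor cell-like cells. The few B cell-like cells (27 and 18) had 458.9 and 457.4 CPM of Pld4, on 42 and 22 counts. The leading genes of that cluster included Siglech beside immunoglobulin genes, and Psap was at 3824 and 5197 CPM in it. Whether all of its cells are B cells was not tested. The study names Acp5 and Pld4 among the genes of one of its macrophage subsets in these same data. Their high level in macrophage-like cells is thus not an independent finding, though they were not used here to name cells. Pld3, the close relative of Pld4, behaved differently. It had 274.0 and 309.2 CPM in T and NK cell-like cells, 213.8% and 221.1% of the level in macrophage-like cells (128.2 and 139.9 CPM), and 29.0 and 24.6 CPM in tumor cell-like cells. Acp2, the lysosomal acid phosphatase, had 150.5 and 153.7 CPM in macrophage-like cells.

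The membrane proteins, apart from Cd68, were found in every class. Cd63, a tetraspanin of late endosomes, had 1384 and 1398 CPM in fibroblast-like, 1291 and 1236 CPM in tumor cell-like and 665.7 and 731.6 CPM in macrophage-like cells. The few mast cell-like cells (6 and 18), which are not among the 7 classes, had more of it, with 2743 and 2626 CPM on 76 and 127 counts. Lamp1 had 800.7 and 790.3 CPM in macrophage-like and 628.2 and 484.0 CPM in tumor cell-like cells. Lamp2 (309.4 and 325.7 CPM) and Scarb2, the receptor that carries glucocerebrosidase to lysosomes (144.5 and 188.4 CPM), were highest in fibroblast-like cells. Cd68, the macrophage sialomucin, was the exception with 925.4 and 997.4 CPM in macrophage-like, 763.7 and 767.4 CPM in M-MDSC-like and 12.7 and 11.3 CPM in tumor cell-like cells. Of the proton pump subunits, Atp6v1a (257.9 and 310.1 CPM in macrophage-like cells) and Atp6v1h (67.8 and 68.3 CPM) were present in every class. Atp6v0d2, an isoform of the membrane sector known from osteoclasts and macrophages, had 9.99 and 11.8 CPM in macrophage-like cells and at most 1.51 CPM in the other classes of the 7. Depth limits this, since endothelial-like cells had 0 counts with upper bounds of 11.6 and 14.9 CPM. Mast cell-like cells had 0 and 3 counts (0 and 62.0 CPM).

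A low level outside the myeloid cells can be RNA released from other cells. The 13 macrophage markers stood in tumor cell-like cells at 0.376% to 0.761% of their macrophage-like level in the library labelled WT and at 0.340% to 0.609% in the library labelled KO. Ctss, Ctsc, Acp5 and Pld4 in tumor cell-like cells were at 0.475% to 0.772% of theirs, which is about the same range, and the part of released RNA was not tested. Psap (8.35% and 5.80%), Ctsb (11.7% and 8.58%) and Grn (32.9% and 21.3%) were above it. In T and NK cell-like cells Pld4 (1.43% and 0.870%) was likewise near the C1q genes, which were at 0.807% to 1.42%. Acp5 in the same cells (5.73% and 4.66%) was above all 13 markers, whose highest values were 2.74% and 2.14%.

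Within macrophage-like cells the genes varied by state. Clustering these 3713 and 4324 cells again, without lysosomal genes, gave 6 states that could be named from markers. They were proliferating cells (921 and 814), cells with Ccl8, Igf1 and Vcam1 (676 and 939), cells with type I interferon genes (247 and 174), cells with Arg1, Mmp12 and Gpnmb (218 and 359), cells named for Cd300e, Fcrl5 and Xcr1 (356 and 1070), and cells in transition from monocytes with Ccr2 and Ly6c2 (496 and 584). The name of the Cd300e state is the least firm, with 2 state markers among its leading genes, the fewest of the 6. Its 10 leading genes were headed by Igkc and Ighg2b and held Cd300e and Xcr1 but not Fcrl5. The share of UMIs from the 33 genes was 3.75% and 3.97% in the Arg1 state and 3.71% and 4.36% in the Ccl8 state, and 2.19% and 2.41% in the Ccr2 transition state, the lowest of the 6 in both libraries.

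The Arg1 state was the highest of the 6 for 15 genes in both libraries, the Ccl8 state for 7 and the Cd300e state for 3, and 19 genes were lowest in the Ccr2 transition state. The share of all genes in each of these positions was not counted, so these counts alone do not set the genes described here apart. Over all other macrophage-like cells the Arg1 state had 6 of 32 genes at least 2-fold higher in both libraries and 2 lower, against 2.82% and 5.12% of 11171 genes. Over the Ccr2 transition state it had 12 of 32 higher and 1 lower, against 4.27% and 4.61% of 8695 genes, with a median log2 ratio of 0.77 and 0.74 against -0.13 and -0.15 for all genes. The 108 other lysosomal genes had 3 of 99 higher and 2 lower in that comparison, with medians of 0.15 and 0.12. The Ccr2 transition state over all others had 0 of 32 higher and 6 lower, against 1.09% and 4.03% of 11171 genes. The Cd300e state over all others had 0 of 32 higher and 1 lower, against 0.519% and 3.58%. Removing the called doublets while keeping the groups left 15 genes highest in the Arg1 state, but clustering anew without them left 3.

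**Figure D2:**
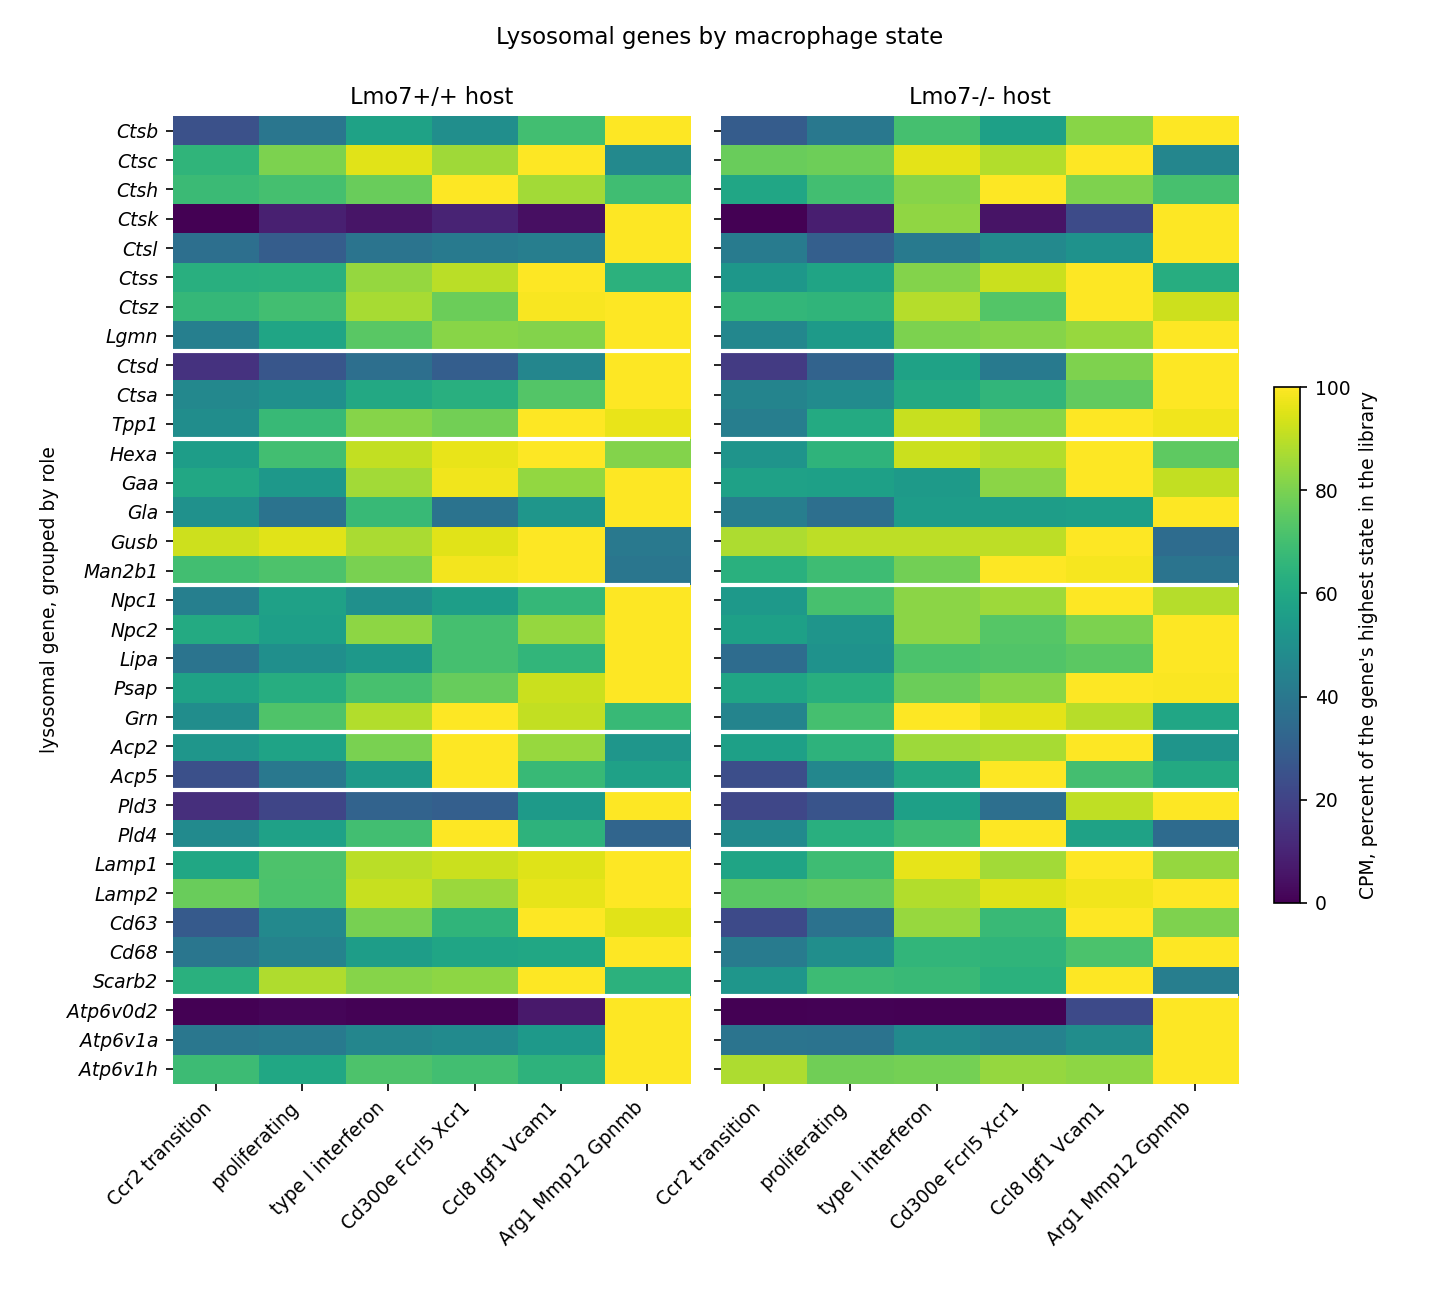
Level of each of the 33 genes in the 6 named macrophage states of each library, as a percent of the CPM of the highest of these states for that gene in that library (colour), grouped by role. The Arg1 columns are highest for 15 genes and lowest for 5, and the Ccr2 transition columns are lowest for 19. The share of all genes in these positions was not counted.

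Cathepsins B and D differed widely between states. Ctsb had 5843 and 5986 CPM in the Arg1 state, 4063 and 4929 in the Ccl8 state and 1450.2 and 1747 in the Ccr2 transition state. Ctsd had 921.1 and 801.1 CPM in the Arg1 state, 422.3 and 646.3 in the Ccl8 state and 135.6 and 139.1 in the Ccr2 transition state. For both, the order Arg1, Ccl8, Ccr2 transition was the same in the 2 libraries. Ctsl (480.8 and 464.8 CPM), Pld3 (366.4 and 271.7 CPM), Lipa (347.2 and 337.6 CPM), Gla (270.3 and 302.4 CPM) and Cd68 (1719 and 1616 CPM) were highest in the Arg1 state too. The Gla level elsewhere was between 102.9 and 182.2 CPM. Ctsk was counted among the 15 on 13 and 7 UMIs.

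The pump subunits followed. Atp6v1a had 537.5 and 650.2 CPM in the Arg1 state and 212.4 to 317.8 CPM in the other 5. Atp6v0d2 had 142 counts in each library there, which is 143.7 CPM (exact Poisson 95% interval 121.1 to 169.4) and 90.8 CPM (76.5 to 107.0), and 10.0 and 20.3 CPM in the Ccl8 state. In the remaining 4 states it had at most 2.1 CPM. The level of this subunit was thus highest in the Arg1 state, though the Ccl8 state held 37 and 99 of the 211 and 251 counts in macrophage-like cells. In the library labelled KO the level was lower in the Arg1 state and higher in the Ccl8 state, each beyond counting error.

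Not every gene shared this pattern. Ctsc, Gusb, Man2b1, Acp2 and Pld4 were lowest in the Arg1 state in both libraries. Gusb had 117.4 and 92.1 CPM there and 227.5 to 290.0 CPM in the other states. Pld4 had 208.5 and 230.8 CPM there, against 636.7 and 658.4 CPM in the Cd300e state, its highest. Acp5 (565.7 and 539.3 CPM) and Ctsh (689.2 and 763.9 CPM), an aminopeptidase among the cathepsins, were also highest in the Cd300e state. Ctss was highest in the Ccl8 state, with 6786 and 9143 CPM, and Ctsc too, with 2413 and 2792 CPM.

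**Figure D3:**
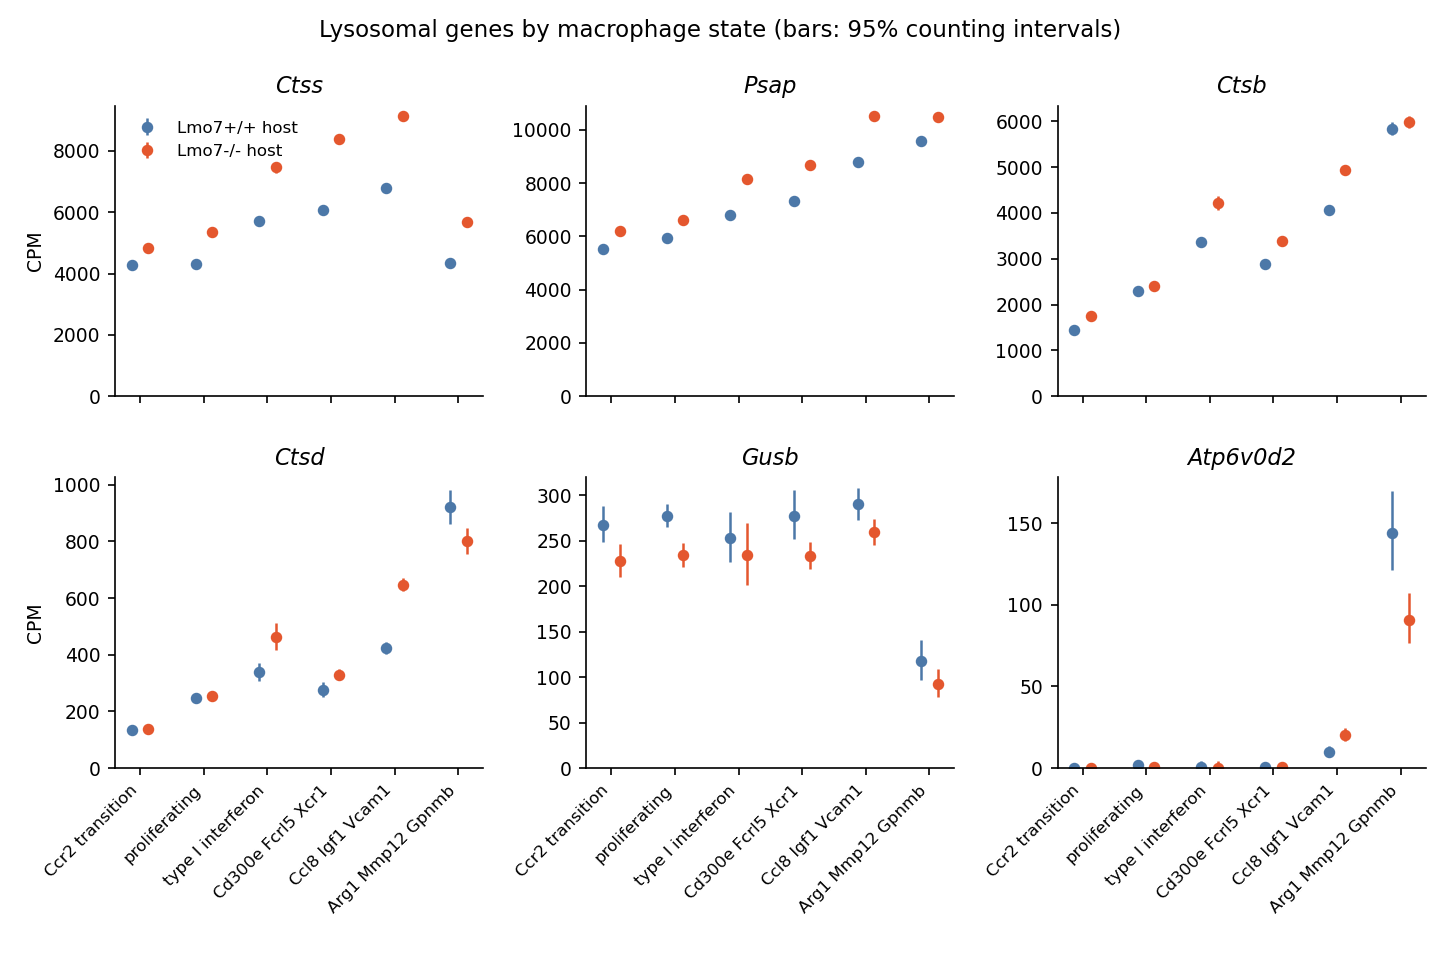
Level in CPM of Ctss, Psap, Ctsb, Ctsd, Gusb and Atp6v0d2 in each named macrophage state, with 1 point per library and bars for exact Poisson 95% intervals. Ctsb, Ctsd and Atp6v0d2 are highest in the Arg1 state, Gusb is lowest there, and Ctss is highest in the Ccl8 state.

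Other genes moved with these states. Hspa1a, a heat shock gene that dissociation can induce, had 3374 and 1701 CPM in the Arg1 state and 972.7 and 1185 CPM in the interferon state, against 28.3 to 128.7 CPM in the other 4, and its part in the levels was not tested. Mitf, which encodes a factor of the TFEB family, had 25.3 and 24.9 CPM in the Arg1 state, 18.1 and 24.4 CPM in the Ccl8 state and 6.16 to 20.6 CPM in the rest. Tfeb and Tfe3 had 9.91 to 27.5 and 31.3 to 44.5 CPM over the 6 states. Of the genes highest in the Arg1 state, 6 of the 12 with a promoter (50%) held the CACGTG motif shown above (Atp6v1a, Ctsa, Ctsd, Ctsl, Gla and Lgmn), against 2 of the 16 others (12.5%, Gaa and Lamp1). These groups were formed after the levels were seen, so the shares are a description. Far fewer genes were highest in the Arg1 state when cells were clustered anew without called doublets, so the first group is not stable.

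The comparison between the libraries asked whether the lysosomal genes of macrophages differed between Lmo7+/+ and Lmo7-/- hosts. In macrophage-like cells the differences were small and mostly in one direction. The log2 ratio of the library labelled KO over WT ranged from -0.62 (Ctsk) to 0.45 (Ctss) with a median of 0.14, against -0.09 over 12228 genes, and 31 of the 33 lay above that median of all genes. No gene was at least 1.5-fold higher and 1 was lower, against 3.57% and 5.63% of all genes. The 1 lower gene, Ctsk, rested on 29 and 19 counts (log2 ratio -0.62, interval -1.54 to 0.26). The exact binomial 95% interval lay above 0 for 22 genes and below 0 for 1, against 11.4% and 30.3% of all genes. Genes with many counts have narrow intervals, so a count of intervals off 0 depends on depth as well as on the size of the differences.

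**Figure D4:**
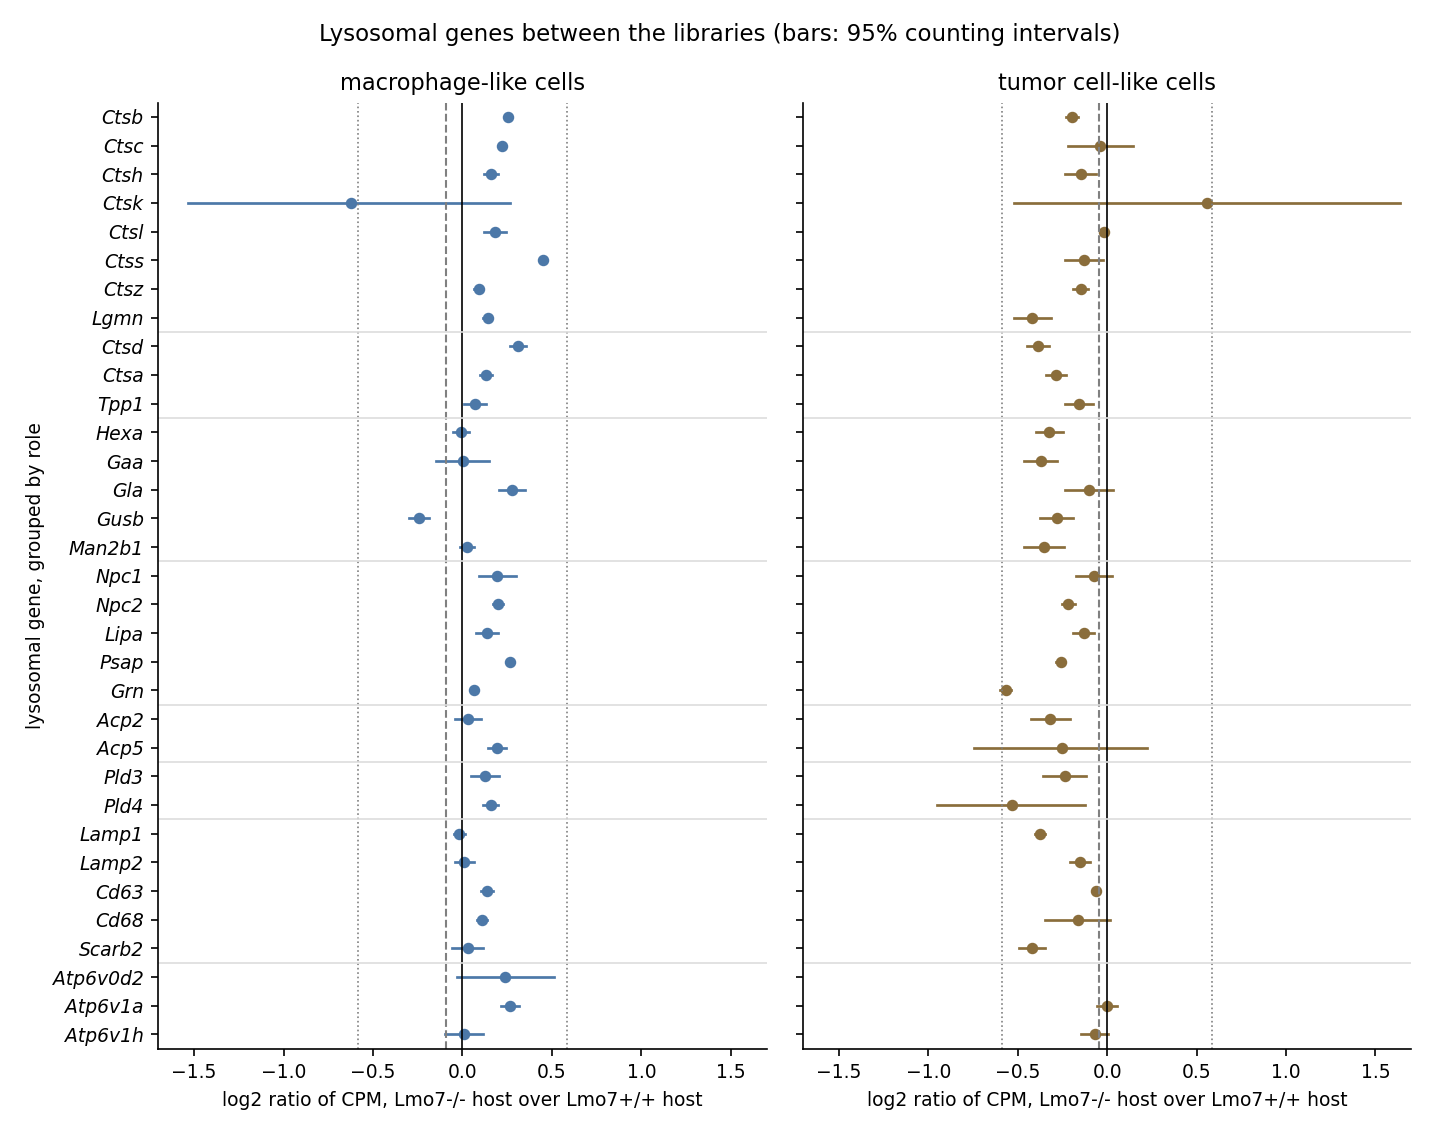
Log2 ratio of the library labelled KO over WT for each of the 33 genes, in macrophage-like cells and in tumor cell-like cells, with exact binomial 95% intervals (Atp6v0d2 had too few counts in tumor cell-like cells to be drawn). Dotted lines mark a 1.5-fold difference and the dashed line the median of all genes; 22 intervals lie above 0 in macrophage-like cells and 23 lie below 0 in tumor cell-like cells.

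Ctss had the highest ratio, with 5035 and 6884 CPM (log2 ratio 0.45, interval 0.44 to 0.46). Ctsd had 330.6 and 410.5 CPM (0.31, 0.27 to 0.36), Gla 130.1 and 157.6 CPM (0.28, 0.20 to 0.35) and Psap 6871 and 8259 CPM (0.27, 0.26 to 0.28). Atp6v1a (0.27), Ctsb (0.25), Ctsc (0.22), Npc2 (0.20), Npc1 (0.19) and Acp5 (0.19) came next among genes whose intervals also lay above 0. Atp6v0d2 stood between them at 0.24, but its interval held 0. With each state given the same weight in both libraries, Atp6v0d2 was at -0.26. Of the 11 proteases 10 had an interval above 0, Ctsk being the exception. Lamp1 (-0.02, -0.05 to 0.01), Hexa (-0.01), Gaa (0.00), Lamp2 (0.01), Atp6v1h (0.01), Man2b1 (0.02), Scarb2 (0.03) and Acp2 (0.03) had intervals that held 0, so 3 of the 5 membrane proteins and 3 of the 5 glycosidases showed no difference beyond counting error. The other membrane proteins, Cd63 (0.14) and Cd68 (0.11), had intervals above 0. With TMM scaling, which adds 0.09, the small negative values change sign. Gusb was the exception, at 266.2 and 224.9 CPM (-0.24, -0.30 to -0.19).

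The makeup of the class moved as well. Cells of the Cd300e state were 9.59% and 24.7% of macrophage-like cells, the unnamed cluster led by Fcrls and Gas6 14.2% and 2.64%, and the median depth was 5229 and 4415 UMIs. Ratios within a named state do not depend on the shares of the states, but cells inside a state can still differ in mix and depth, which was not tested. Ctss, Ctsc, Psap and Npc2 had intervals above 0 in 6 of 6 states, and Gusb had a ratio below 0 in 6 of 6, with the interval below 0 in 4. Ctss had log2 ratios from 0.18 in the Ccr2 transition state to 0.47 in the Cd300e state. A further comparison gave each of the 6 named states the same weight in both libraries and left out the unnamed clusters. The median over the 33 genes was then 0.06, against 0.14 over all macrophage-like cells. Acp5 had 332.6 CPM in both libraries (log2 ratio 0.00), against 286.9 and 327.9 CPM over all macrophage-like cells. Ctss was at 0.38 and Psap at 0.21. Without the barcodes present in both libraries the median was 0.14. In the Ccl8 state 20 of 32 genes had an interval above 0 and 2 below, against 7.11% and 15.8% of 10019 genes. In the interferon state 15 of 31 were above and 1 below, against 5.21% and 8.12% of 7699 genes, and in the Cd300e state 12 of 31 were above and 3 below, against 6.21% and 14.4% of 9506 genes. Proliferating cells had 9 of 31 above and 4 below, against 8.29% and 14.7% of 10558 genes, and the Ccr2 transition state had 8 of 31 above and 3 below, against 5.96% and 9.18% of 9414 genes. The Arg1 state was even, with 7 above and 7 below of 33, against 5.45% and 7.42% of 7979 genes, and its median of -0.05 was that of all genes (-0.05).

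The 108 other lysosomal genes gave a wider spread in macrophage-like cells. Their list also holds inhibitors, sorting genes and transcription factors, so not every product is a protein of the lysosome. Of 105 with enough counts, 4 were at least 1.5-fold higher and 2 lower, 35 had an interval above 0 and 22 below, and the median was 0.04. The highest ratios were those of Cst7, the cathepsin inhibitor cystatin F (2.37 and 5.73 CPM, log2 ratio 1.28, interval 0.79 to 1.78), Serpinb9, a granzyme B inhibitor (23.1 and 48.7 CPM, 1.08, 0.92 to 1.24), and Cpq, a carboxypeptidase (44.4 and 78.7 CPM, 0.83, 0.71 to 0.94). Among genes reaching 100 counts, the lowest were Tpcn1, a lysosomal ion channel (-0.67), Hgsnat, an enzyme of heparan sulfate breakdown (-0.51), and Ctsf, cathepsin F (-0.49). Ctse was lower still on 39 and 18 counts (-1.13, -2.02 to -0.29). Lyz2, lysozyme, had 2599 and 4255 CPM (0.71, 0.70 to 0.73). Other genes named for their level differed less, with Gm2a, the GM2 ganglioside activator, at 0.15, Laptm4a, a lysosomal membrane protein, at 0.33, M6pr, a mannose 6-phosphate receptor, at 0.15, Gnptab, which makes the mannose 6-phosphate tag, at 0.20, Cstb, cystatin B, at 0.12, and Serpinb6a, a serpin, at 0.16. Laptm5 (-0.02), Litaf (-0.02), Ifi30, the thiol reductase of antigen processing (-0.02), Cst3, cystatin C (-0.09), and Ap3b1, an adaptor of lysosomal sorting (-0.27), were at or below 0. Of the pump subunits Atp6v0c was at 0.09, Atp6ap2 at 0.12 and Atp6ap1 at 0.02. The transcription factors Tfe3 (-0.19), Tfeb (-0.02) and Mitf (0.17) had 39.9 and 34.9, 14.7 and 14.5, and 13.4 and 15.1 CPM.

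In tumor cell-like cells the direction was the opposite. The 32 genes compared had a median log2 ratio of -0.21 against -0.05 over 13813 genes, and 23 had an interval below 0 and 0 above, against 26.3% and 14.1% of all genes. None was past 1.5-fold, with 0 higher and 0 lower, against 3.17% and 4.80% of all genes. Grn had 547.1 and 369.4 CPM (-0.57, -0.60 to -0.54), Ctsd 119.5 and 91.4 CPM (-0.39, -0.45 to -0.33), Lamp1 628.2 and 484.0 CPM (-0.38, -0.40 to -0.35) and Scarb2 84.4 and 63.1 CPM (-0.42, -0.49 to -0.35). Ctsl, whose highest class these cells were, had 890.1 and 880.0 CPM (-0.02, -0.04 to 0.00), and Cd63 had 1291 and 1236 CPM (-0.06). Genes that cell handling can induce differed in these cells too, with Fos at 638.1 and 422.1 CPM, Hspa1a at 3.19 and 1.58 CPM and Hspa1b at 19.01 and 36.8 CPM, and their part in the differences was not tested. Of the other lysosomal genes 57 of 105 had an interval below 0 and 5 above, with a median of -0.14. Tumor cells have the same genotype in both libraries, but the name of this class is less firm than the others. The per-cell gate alone named 34 and 42 cells tumor cell-like and 2824 and 1940 cells fibroblast-like. Whether the class holds host cells was not tested.

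The class was made of 3 clusters. In the cycling cluster led by Cdc20 and Ccnb1 (2929 and 2160 cells) 25 of 31 intervals lay below 0 and 0 above, against 23.8% and 12.3% of 12913 genes, and the median was -0.27 against -0.05. In the cluster led by Cdsn and Car9 (2027 and 1375 cells) 16 of 31 lay below and 3 above, against 20.8% and 11.5% of 12529 genes, with a median of -0.11 against -0.06. Ctsl had opposite directions in these 2 clusters, with 844.9 and 754.4 CPM in the cycling cluster (-0.16, -0.19 to -0.13) and 1045 and 1225 CPM in the other (0.23, 0.20 to 0.26). In the shallow cluster led by Cnih2 and Hoxc10 (998 and 822 cells, median 2129.5 and 1910.5 UMIs) 5 of 30 lay below 0 and 0 above, against 6.54% and 6.57% of 10034 genes, with a median of -0.25. Of the 32 genes compared in both classes, 15 had an interval above 0 in macrophage-like cells and below 0 in tumor cell-like cells, against 2.85% of 11583 genes, and for 3 the 2 ratios were also at least 1.5-fold apart, against 0.958%. Among the 15 were Ctsb, Ctsd, Ctss, Lgmn, Psap and Grn. For Ctss and Pld4 the level in tumor cell-like cells, as a percent of the macrophage-like level, was in about the range of the macrophage markers.

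M-MDSC-like cells numbered 552 and 439. Of 31 genes 0 were at least 1.5-fold higher and 0 lower, against 5.59% and 9.39% of 8534 genes, and the median log2 ratio was 0.05 against -0.05. An interval lay above 0 for 8 genes and below for 2, against 5.43% and 8.24% of all genes. Ctsc had 1452 and 1880 CPM (0.37, 0.29 to 0.45), Ctss 4497 and 5022 CPM (0.16, 0.11 to 0.21), Cd63 124.5 and 161.6 CPM (0.38, 0.10 to 0.65) and Man2b1 270.5 and 326.3 CPM (0.27, 0.08 to 0.46). Acp5 had 73.3 and 49.8 CPM (-0.56, -1.004 to -0.12) and Lamp1 585.1 and 517.4 CPM (-0.18, -0.32 to -0.04). The 13 macrophage markers summed to 6448 and 7875 CPM in these cells and the 9 M-MDSC markers to 5724 and 4618 CPM, and their part in the values was not tested.

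T and NK cell-like cells (532 and 691) had 1 of 30 genes at least 1.5-fold higher and 5 lower, against 4.78% and 9.54% of 9142 genes, with a median of -0.18 against -0.05. The 1 higher gene was Acp2, on 13 and 26 counts (0.62, -0.39 to 1.705). The 5 were Gusb, Lamp1, Ctsh, Cd63 and Lgmn. Ctsh (16 and 11 counts) stood at 2.09% and 0.989% of the macrophage-like level and Lgmn (35 and 30 counts) at 2.09% and 1.252%. Both were above the C1q genes of the same library there and below the highest macrophage marker (2.74% and 2.14%). The part of macrophage RNA in them was not tested. Lamp1, whose protein reaches the surface when cytotoxic granules fuse, had 143.9 and 80.1 CPM (210 and 152 counts, -0.85, -1.16 to -0.54), and Cd63, also found on such granules, had 93.9 and 52.7 CPM (-0.83, -1.22 to -0.45). Rhox5, a gene of the tumor cell-like cells (405.9 and 403.1 CPM there), was likewise lower in the library labelled KO in T and NK cell-like cells, with 37.7 and 19.5 CPM, which is 9.28% and 4.84% of its tumor cell-like level. Lamp1 stood at 22.9% and 16.5% and Cd63 at 7.27% and 4.26% of theirs, tumor cell markers summed to 120.6 and 121.7 CPM, and the part of tumor RNA in these values was not tested. Psap had 397.4 and 276.0 CPM (-0.53, -0.70 to -0.35), at 5.78% and 3.34% of the macrophage-like level, while macrophage markers summed to 237.7 and 184.9 CPM in these cells, and their part in the value was not tested. Pld3 had 274.0 and 309.2 CPM. Ctsb was the gene with an interval above 0, at 318.6 and 360.9 CPM (0.18, 0.01 to 0.35).

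The small classes carried wide intervals. In dendritic cell-like cells (323 and 202) Ctsc had 400.7 and 562.2 CPM (0.49, 0.31 to 0.67) and Psap 3517 and 4402 CPM (0.32, 0.26 to 0.39), while Ctsl had 60.6 and 37.6 CPM (-0.69, -1.32 to -0.09), and the median over 31 genes was -0.08. The class held 2 clusters that went apart. In the one led by Plet1 and Itgae (287 and 176 cells) Ctsc had 407.0 and 610.2 CPM and Psap 3722 and 4724 CPM, whereas in the one led by Ccl22 and Ccr7 (36 and 26 cells) Ctsc had 345.6 and 86.8 CPM on 48 and 7 counts and Psap 1728 and 1215 CPM on 240 and 98 counts. In fibroblast-like cells (106 and 80) Ctsk had 476.3 and 674.6 CPM (0.50, 0.25 to 0.76), Ctsb 844.6 and 1112 CPM (0.40, 0.20 to 0.59) and Tpp1 46.8 and 102.3 CPM on 23 and 44 counts (1.13, 0.37 to 1.92), and the median over 29 genes was 0.15. In endothelial-like cells (77 and 53) Grn had 410.6 and 573.0 CPM (0.48, 0.13 to 0.83), and the median over 26 genes was 0.12. Ctsc and Psap thus had intervals above 0 in macrophage-like and M-MDSC-like cells and in the dendritic cell-like class as a whole, while Ctsc in fibroblast-like cells (-0.62, -1.13 to -0.12) and Psap in endothelial-like cells (-0.35, -0.63 to -0.08) had intervals below 0.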

How the data were processed

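The deposited files hold raw UMI counts per gene and droplet, which the authors made with Cell Ranger 2.1.1 on the build mm10 according to the submitters' processing notes, and which carry no normalization. The file headers name another software version, so the version is not settled. The annotation is not given in the sources used here. Droplets under 500 genes, under 1000 UMIs or over 15% mitochondrial UMIs were dropped, and the rest were scaled to 10000 and clustered (scanpy 1.11.5, 2000 variable genes, 30 principal components, 20 neighbours, Louvain at resolution 0.5, and 0.8 for macrophage states), leaving out the 33 genes and 108 other lysosomal genes. Classes were named from 120 markers of 11 cell types, and cells with 4 or more detected markers of another class were removed from a class (482 and 290 cells), while 1770 and 1388 cells remained unnamed.

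Counts were summed per class and library. Levels are CPM with exact Poisson intervals, and the ratio of the library labelled KO over WT has an exact binomial (Clopper-Pearson) 95% interval. Ratios needed at least 20 counts over both groups compared, and 0 counts were taken as a floor of 3 counts. PCR duplicates are removed by UMIs, and intervals cover counting error only. A difference counted as called past 1.5-fold between libraries and past 2-fold, in both libraries, between classes or states. The libraries have 1 sample per genotype, so no test was run. All 33 genes are named. Of the other lysosomal genes the text names the 3 of highest and 3 of lowest ratio among those reaching 100 counts, and the 3 of highest CPM in each sublist. Ctse is named besides, as the lowest ratio below that limit. The members and lists were chosen with earlier results of these data known, and the limit of 4 markers and the state resolution were set after the data were seen. Promoter sequences are from RefSeq. Alternatives were the cell filters, the gate, doublets, resolution, genes used for clustering, per-cell means, thinning to 1500 UMIs, TMM (edgeR 4.0.16), library totals, the count minimum and the fold. The ratios with their intervals, the thinning, and the clustering with naming of classes were tested on simulated data, and the other steps were not. Software was Python 3.11.15 (igraph 0.11.9, pandas 2.3.3, scipy 1.17.1, numpy 2.4.6) and R 4.3.3.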

Additional observations from a re-analysis of the deposited data

Results flagged for a closer look

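For 3 genes the difference between the libraries went in opposite directions in macrophage-like and tumor cell-like cells, with both 95% counting intervals off 0 and a gap of at least 1.5-fold, which 0.958% of 11583 genes showed. The difference itself was not tested, since each genotype has 1 library. For Ctsd the log2 ratio in macrophage-like cells minus that in tumor cell-like cells was 0.70 (0.31 and -0.39), for Pld4 it was 0.69 (0.16 and -0.53) and for Grn it was 0.63 (0.06 and -0.57). With states weighted alike the ratio in macrophage-like cells was 0.25 for Ctsd, 0.05 for Pld4 and 0.03 for Grn. By state, the interval lay above 0 in 3 states and below 0 in 1 for Ctsd. These numbers were 1 and 1 for Pld4 and 2 and 1 for Grn. Pld4 had 150 and 75 counts in tumor cell-like cells, where its level, as a percent of the macrophage-like level, was in about the range of the macrophage markers. Another 12 of the 15 genes with opposite directions (2.85% of all genes) had a smaller gap, for example Ctss with 0.58.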

How the results depend on the processing

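In macrophage-like cells the 22 genes with an interval above 0 had a ratio above 0 in every setting run, apart from Acp5, which was at 0.00 with states weighted alike, and the median log2 ratio over the 33 genes was 0.11 to 0.16 except with TMM (0.23) and with states weighted alike (0.059, chosen after seeing the data). The number at least 1.5-fold lower there (1, Ctsk) was 0 with doublets removed, lysosomal genes kept in clustering, per-cell means, thinning, TMM, a count minimum of 100 and a 2-fold limit, and the number higher (0) was 1 with per-cell means, thinning and a lower fold limit. Ctsk, on few counts, turned to 0.57 with per-cell means, and the cause was not tested. In tumor cell-like cells the median was -0.12 at resolution 1.0. The number higher there (0) was 1 with a lenient filter, TMM and a lower fold limit and 2 with the per-cell gate alone, and the number lower (0) was 1 at resolution 1.0 and with no count minimum, 2 with per-cell means, 6 with the gate alone, which left 34 and 42 cells, and 9 with a lower fold limit. In M-MDSC-like cells the number higher (0) was 1 with the gate alone, thinning and no count minimum and 2 with a lower fold limit, and the number lower (0) was 1 with a lenient filter and a lower fold limit, and the median turned to -0.08 with the gate alone, -0.02 with doublets removed and -0.01 with thinning, within its counting error. The number of genes highest in macrophage-like cells (22) was 21 to 25. The number highest in the Arg1 state (15) was 12 to 20, but 3 when cells were clustered anew without called doublets. No paired analysis was possible because each genotype has 1 library and no test was run. Depth limits the small classes and the counts of Ctsk in macrophage-like and of Atp6v0d2, Acp5 and Pld4 in tumor cell-like cells.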

Other observations

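Among macrophage-like cells 4 clusters could not be named as a state. The cluster led by Lyve1 and Cd209f (63 and 49 cells) had Ctsb at 7136 and 7168 CPM and Ctsd at 1144 and 942.3 CPM, above the 6 named states, on few cells. The cluster led by H19 and Rhox5 (194 and 189 cells), genes highest in fibroblast-like and in tumor cell-like cells, gave 2.51% and 2.82% of its UMIs to the 33 genes, and the cluster led by Fcrls and Gas6 (526 and 114 cells) gave 2.97% and 3.36%. The cluster led by Retnla and Aldh1a2 (16 and 32 cells) gave 2.81% and 2.52%. B cell-like cells (27 and 18) and mast cell-like cells (6 and 18) gave 1.02% and 1.26%, and 0.599% and 0.624%.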
